A study of Homo sapiens with 6 samples.

Results

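MCCC2 and 8 other genes for enzymes of leucine breakdown were followed in RWPE-1 cells given an oligomer directed against the microRNA miR-205. The 9 genes are MCCC2, MCCC1, IVD, AUH, BCAT1, BCAT2, BCKDHA, BCKDHB and DBT. MCCC2 was chosen because its signal was lower in the LNA-205 cells in earlier work on these arrays, and the other 8 because they encode enzymes of the same pathway. All 15 probes annotated to these genes were taken, of 48799 probes with values. RWPE-1 is a line of human prostate epithelial cells, immortalised with a human papillomavirus and not tumorigenic. Cells of both groups were transfected with 100 nM of an oligomer and RNA was taken 72 h later. The oligomer LNA-205 is a locked nucleic acid, in which modified sugars strengthen base pairing, and is antisense to miR-205. LNA-Scr has a scrambled sequence and was the control. There were 3 control samples (replicates A to C) and 3 LNA-205 samples (replicates D to F), each read on 1 single-colour Illumina bead array. Both groups share the cell line and the transfection, and untransfected cells were not analysed here. The labels call the transfections triplicates without saying whether they came from separate cultures, so the tests measure the spread between these transfections, which may be technical.

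The oligomer's target is shown because the whole comparison rests on it. The mature microRNA has 22 bases, and its seed, the bases 2 to 8 with which a microRNA mainly recognises its targets, is in capitals. The sequence is from RefSeq (GRCh38.p14, chr1:209432166-209432187, plus strand).
hsa-miR-205-5p: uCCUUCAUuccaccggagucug
The arrays do not read the mature microRNA, so the silencing itself was not measured. No transcript sequence was searched for sites that match this seed.

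Leucine is an essential branched-chain amino acid that cells use for protein synthesis, as a signal to the mTORC1 kinase, and as fuel. Its breakdown runs in mitochondria through a fixed order of steps. A transaminase (BCAT1 in the cytosol, BCAT2 in mitochondria) removes the amino group, and the branched-chain keto acid dehydrogenase complex (BCKDHA, BCKDHB and DBT, with DLD) makes isovaleryl-CoA. IVD oxidises this to methylcrotonyl-CoA. Methylcrotonyl-CoA carboxylase, built from the biotin-carrying MCCC1 and the MCCC2 subunit, adds a carboxyl group. AUH then adds water to give HMG-CoA, from which acetoacetate and acetyl-CoA are made. The first steps are shared with isoleucine and valine, whereas the steps from IVD to AUH serve leucine.

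Of these 9 genes, MCCC2 had a signal about 3.30 times lower in LNA-205 than in LNA-Scr, and the other genes measured lay within 0.22 of their control mean on the log2 scale. At least 1 probe was above background (detection p under 0.01 on 3 or more of the 6 arrays of either group) for 8 genes, and BCAT1 was the exception. Of the 15 probes, 10 passed this filter. Among the 7 genes measured beside MCCC2, 4 had lower and 3 had higher means in LNA-205. None of the 7 passed limma's test with Benjamini-Hochberg adjustment over all 10803 features at 0.05, and none had an unadjusted p under 0.05. Over all features 0.00926% passed the adjusted threshold, that is 1 feature, MCCC2 itself, and 6.27% had an unadjusted p under 0.05. Because MCCC2 was chosen on this contrast, nothing is read from that call and its values are given as a description.

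MCCC2 encodes the non-biotin-carrying subunit of methylcrotonyl-CoA carboxylase, which holds the carboxyltransferase activity. It is read by 1 annotated probe, ILMN_1769264. The normalized log2 intensity was 10.01, 9.70 and 9.59 in the controls (A to C, the order used throughout) and 8.22, 8.14 and 7.78 with LNA-205 (D to F). All 3 LNA-205 arrays thus lay below all 3 control arrays, with the gap between the groups wider than the range within either. The control mean was 9.77 ± 0.22 and the LNA-205 mean 8.05 ± 0.24 (SD, n = 3 each), a log2 difference of −1.72, so that 30.3% of the control signal was left. With any 1 array left out the difference stayed between −1.81 and −1.59. Among all 10803 features it was the one with the largest absolute difference.

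The size of the MCCC2 difference depended on how background was treated. Before any correction the scanner intensities of the probe were 1099.9, 1132.7 and 924.6 in LNA-Scr and 502, 474.5 and 377.5 in LNA-205, where the median probe of an array read 217 to 226.5. The LNA-205 readings were therefore closer to the background of the arrays than the control readings were. The detection p was 0 on the control arrays and for replicate D, 0.00132 on replicate E and 0.00659 on replicate F, so the probe was above background on all 6 arrays but in replicate F close to the limit of 0.01. Without background correction the mean intensity was 1052 ± 112 in the controls and 451 ± 65.4 with LNA-205 (SD, n = 3 each), a ratio of 2.33. In the authors' processed log2 values the means were 10.08 ± 0.18 and 8.84 ± 0.14 (SD, n = 3 each), a difference of −1.24, and again the groups did not overlap. In a bulk culture, fewer cells with the transcript and less of it per cell cannot be told apart. Reading by 1 probe also means that a change in the transcript's end or splicing could not be told apart from a change in its amount, and neither was tested.

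**Figure D1:**
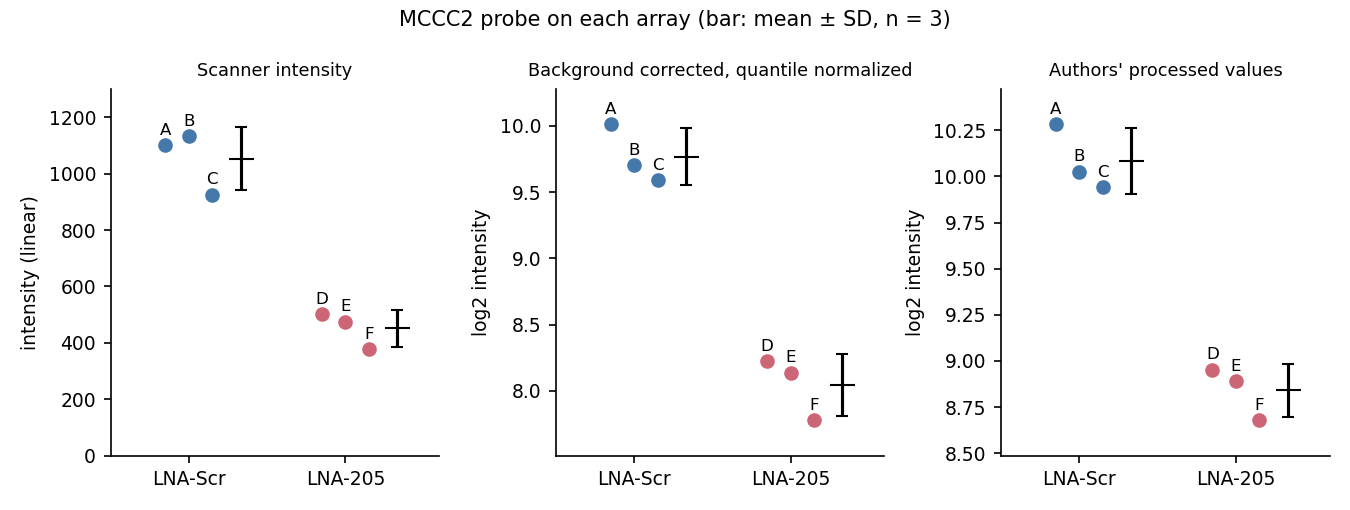
MCCC2 probe on each array as scanner intensity on a linear axis (left), as background-corrected and quantile-normalized log2 intensity (middle) and as the authors' processed log2 values (right). Letters name the replicates and bars show the mean ± SD of 3 arrays. On every scale the 3 LNA-205 arrays lie below the 3 LNA-Scr arrays, and the log2 difference is −1.72 in the middle and −1.24 at the right.

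The partner subunit showed no difference that passed the test. MCCC1 carries the biotin of the same enzyme, and both subunits are needed for activity. Its log2 intensity was 10.31, 10.70 and 10.60 in LNA-Scr and 10.34, 10.19 and 10.69 in LNA-205. The groups overlapped, and LNA-205 replicate F, the lowest array for MCCC2, was the highest LNA-205 array for MCCC1. The difference was −0.13 (SE 0.16, 95% interval −0.50 to 0.24, limma adjusted p = 0.917). The interval reaches from 70.9% to 118% of the control level, so a modest change of MCCC1 could not be seen with 3 arrays per group.

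At the entry of the pathway, BCAT2 was the one gene beside MCCC2 whose groups did not overlap. BCAT2 is the mitochondrial transaminase that takes the amino group from leucine, isoleucine and valine. Its log2 intensity was 11.33, 11.24 and 11.39 in LNA-Scr and 11.10, 11.16 and 11.11 in LNA-205. Every LNA-205 array was lower than every LNA-Scr array, but the difference was small at −0.20 (SE 0.10, 95% interval −0.43 to 0.03), and it did not pass the test (limma adjusted p = 0.793). Lower values without overlap, found for 1 of the 7 genes, were found for 5.78% of all features. BCAT1, the cytosolic transaminase, was on no array well above background by either of its 2 probes. The detection p of these probes was between 0.0237 and 0.656 for ILMN_1766169 and between 0.0975 and 0.449 for ILMN_1838685, and no fold is given for this gene.

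The keto acid dehydrogenase complex, which commits the carbon skeleton to breakdown, showed no difference that passed the test. BCKDHA encodes the alpha subunit of its decarboxylase and had log2 intensities of 10.30, 10.27 and 10.48 in LNA-Scr and 10.36, 10.58 and 10.33 in LNA-205. These values were interleaved, with a difference of 0.07 (SE 0.12, 95% interval −0.19 to 0.34, limma adjusted p = 0.941). DBT encodes the lipoate-bearing core of the complex, and its brightest probe read 11.17, 10.86 and 11.27 in LNA-Scr and 11.11, 11.07 and 11.12 in LNA-205. Here the LNA-205 arrays lay inside the wider range of the controls, and the difference was 0.00 (SE 0.13, 95% interval −0.29 to 0.29, limma adjusted p = 0.999). A second DBT probe, ILMN_1887403, was above background on 1 array (LNA-Scr replicate A), and another, ILMN_1838254, on none, so neither gives a fold.

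BCKDHB, the beta subunit of the decarboxylase, has 4 probes, of which 3 passed the filter. The brightest, ILMN_2390453, read 8.46, 8.70 and 8.34 in LNA-Scr and 8.19, 8.26 and 8.49 in LNA-205, a difference of −0.19 (SE 0.13, limma adjusted p = 0.849) with overlapping groups. The second, ILMN_1655433, read 8.05, 7.83 and 8.34 against 7.49, 8.45 and 7.81, a difference of −0.16, and was above background on 5 of the 6 arrays. The third, ILMN_1764166, read 8.08, 7.61 and 7.93 against 8.04, 7.92 and 7.56, a difference of −0.04. The 3 probes had the same sign, but each difference was within the spread between replicates, and the arrays did not keep the same order from probe to probe. The fourth probe, ILMN_2259949, was on no array well above background.

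The steps on either side of the carboxylase also did not pass the test. IVD, the dehydrogenase that supplies the carboxylase with its substrate, read 10.17, 10.10 and 9.79 in LNA-Scr and 9.86, 9.67 and 9.87 in LNA-205. LNA-Scr replicate C fell among the LNA-205 arrays, and the difference was −0.22 (SE 0.13, 95% interval −0.52 to 0.08, limma adjusted p = 0.827), the largest in size among the 7 genes. AUH, the hydratase that takes the carboxylase's product, read 9.66, 9.71 and 9.53 in LNA-Scr and 9.69, 9.68 and 9.68 in LNA-205. Its LNA-205 values differed from each other by about 0.01 and lay inside the range of the controls. The difference was 0.05 (SE 0.10, 95% interval −0.18 to 0.28, limma adjusted p = 0.956).

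**Figure D2:**
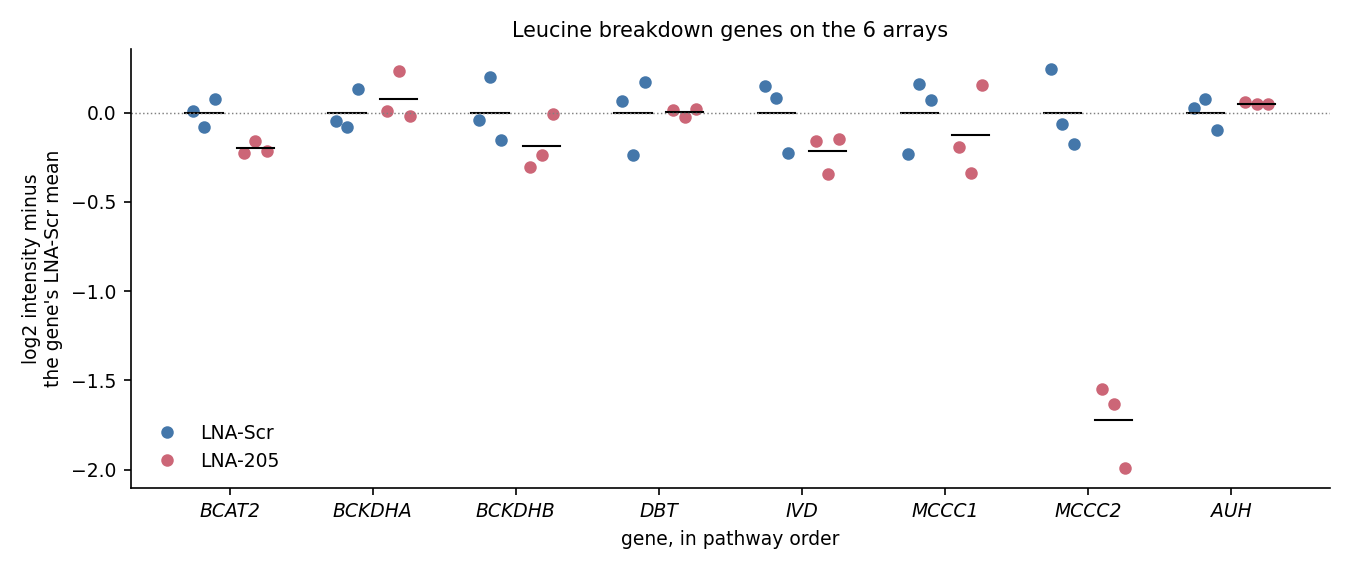
Normalized log2 intensity of 8 leucine breakdown genes on the 6 arrays, each minus the gene's own LNA-Scr mean, in the order of the pathway. Points are arrays and short bars are group means of 3 arrays. The LNA-205 points of MCCC2 lie between −1.99 and −1.55, and the points of the other genes all lie within 0.344 of 0.

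Described together, the 7 genes beside MCCC2 had a median log2 difference of −0.13, and the median over all features was 0.00. Their median absolute difference was 0.13, against 0.10 over all features and a median SE of 0.13. Their differences were therefore of the size seen across the array, and lower means, found for 4 of 7, were found for 50.2% of all features. In the authors' processed values the 7 differences ran from −0.18 (BCAT2 and IVD) to 0.07 (BCKDHA), with the same sign as above for each gene. MCCC2 was −1.24 on that scale.

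**Figure D3:**
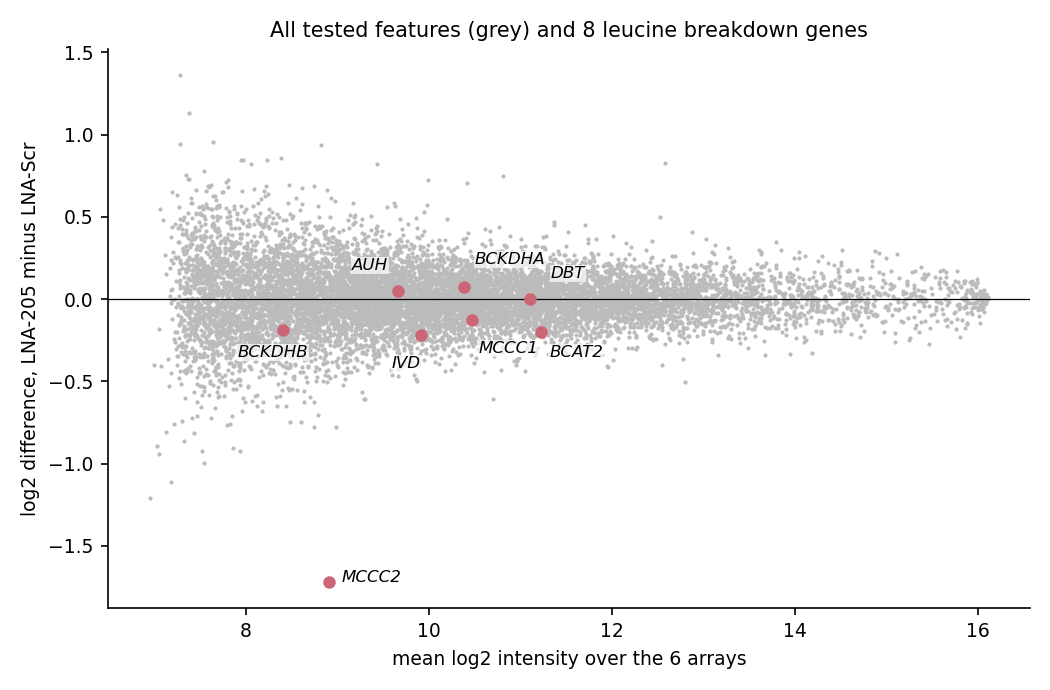
Log2 difference between LNA-205 and LNA-Scr against mean log2 intensity over the 6 arrays for the 10803 features tested. Grey points are all other features and red points are the 8 measured leucine breakdown genes. MCCC2, at −1.72, lies below every other feature, and the other 7 genes lie in the body of the distribution.

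Genes that act around this pathway were read from 10 lists, chosen with earlier results of these arrays known. They hold 68 genes, of which 53 were measured, 28 with lower and 25 with higher means in LNA-205 and a median log2 difference of −0.02. None of the 53 passed limma's adjusted threshold in either direction. By the brightest probe the groups did not overlap for 3 lower and 2 higher genes of the 53. Over all features the shares were 5.78% lower and 6.38% higher. At an unadjusted p under 0.05 there were 2 by the brightest probe of each gene, both lower and both transporters. The background share was 6.27% in either direction and 3.07% for lower features. With every probe fitted on its own, further probes of HSD17B10 (higher), RRAGB and SLC7A6 (both lower) were also under 0.05. The partner and regulators of the dehydrogenase complex were all measured. DLD, its lipoamide dehydrogenase, differed by 0.03 (SE 0.12), BCKDK, the kinase that switches the complex off, by −0.14 (SE 0.10), and PPM1K, the phosphatase that switches it on, by 0.08 (SE 0.13, and −0.02 by a second probe). At the end of the pathway ACAT1, the thiolase of ketone and isoleucine metabolism, differed by 0.14 (SE 0.11) and the ketone body enzymes BDH1, OXCT1 and AACS by 0.22 (SE 0.15), −0.04 (SE 0.10) and −0.07 (SE 0.15).

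The other biotin-dependent carboxylases had differences of at most 0.21 in size where detected on all 6 arrays, and none passed the test. PC (pyruvate carboxylase) differed by −0.21 (SE 0.11, limma adjusted p = 0.801), with LNA-Scr values of 8.64, 8.48 and 8.49 and LNA-205 values of 8.21, 8.44 and 8.34 that did not overlap. PCCA and PCCB, the subunits of propionyl-CoA carboxylase, the closest relative of the methylcrotonyl enzyme, differed by −0.08 (SE 0.11) and 0.05 (SE 0.16), and ACACA, the carboxylase of fatty acid synthesis, by −0.05 (SE 0.12). A second ACACA probe gave −0.17, with groups that did not overlap. HLCS, which attaches biotin to these enzymes, differed by −0.27 (SE 0.15, limma adjusted p = 0.815) with overlapping groups. Of the 7 genes measured of 8 in this list, each by its brightest probe, 5 were lower and 2 higher, with a median of −0.06. IVD passes its electrons to the electron transfer flavoprotein branch. Its 3 genes differed by 0.14 (SE 0.10, ETFA), 0.05 (SE 0.13, ETFB) and 0.08 (SE 0.13, ETFDH), and a second ETFB probe gave −0.04. The ETFA groups did not overlap, at 12.94, 12.92 and 12.92 in LNA-Scr and 13.17, 13.02 and 13.02 in LNA-205.

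By the brightest probe of each gene, the breakdown of isoleucine and valine showed as many lower as higher genes, 4 each of 8 measured, with differences from −0.19 (ALDH6A1) to 0.13 (ECHS1). The sign depended on the probe for 2 of these genes. HSD17B10, a dehydrogenase of isoleucine breakdown, differed by −0.06 by its brightest probe and by 0.39 (SE 0.11, limma adjusted p = 0.724 over every probe) by a second, whose groups did not overlap. ACAD8, of valine breakdown, differed by 0.03 and by −0.13. HIBADH, a dehydrogenase of valine breakdown, read 11.82, 11.75 and 11.68 in LNA-Scr and 11.65, 11.58 and 11.50 in LNA-205, groups that just did not overlap, with a difference of −0.17 (SE 0.10). The 5 measured propionyl-CoA genes ran from −0.22 (MMAB) to 0.11 (MCEE). LIPT1 and LIAS, which supply the lipoate of the dehydrogenase complex, differed by −0.22 (SE 0.14) and −0.10 (SE 0.13), with a second LIPT1 probe at −0.02 and a second LIAS probe at 0.26 (SE 0.14), of the opposite sign. By the brightest probe the 10 genes of mitochondrial content ran from −0.14 (ATP5F1A, of ATP synthase) to 0.07 (CYCS, cytochrome c), with a median of −0.01. Further probes lay outside this range for ATP5F1A (−0.22) and HSPD1, a mitochondrial chaperone (0.26), with overlapping groups. CS (citrate synthase) differed by −0.08 (SE 0.12) and VDAC1, a pore of the outer membrane, by 0.01 (SE 0.10).

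Of the transporters that carry branched-chain amino acids, SLC7A6 and SLC43A2 had the lowest values in LNA-205. SLC7A6, a light chain that exchanges cationic and neutral amino acids, read 9.80, 9.75 and 9.93 in LNA-Scr and 9.41, 9.35 and 9.33 in LNA-205. The groups lay well apart, and the difference was −0.46 (SE 0.10, 95% interval −0.69 to −0.23), but it did not pass the adjusted test (limma adjusted p = 0.550). A second SLC7A6 probe gave −0.41 with overlapping groups. SLC43A2, which carries large neutral amino acids, read 8.61, 9.42 and 9.36 against 8.05, 8.37 and 8.65. LNA-205 replicate F was above LNA-Scr replicate A, and the difference was −0.78 (SE 0.24, limma adjusted p = 0.691). The bright pair SLC7A5 and SLC3A2, which form the main leucine carrier of many dividing cells, differed by −0.03 (SE 0.10) and 0.03 (SE 0.11). SLC7A8 and SLC25A44, the mitochondrial carrier for these amino acids, differed by −0.09 (SE 0.11) and −0.11 (SE 0.11). Of 7 measured genes of leucine sensing and mTORC1, 6 were higher and 1 lower by the brightest probe, between −0.06 (MTOR) and 0.13 (RRAGB). RRAGB, a Rag GTPase, turned with the probe. Its second probe, above background on 5 of 6 arrays, read 8.07, 8.43 and 8.49 in LNA-Scr and 7.75, 7.32 and 7.81 in LNA-205. Those groups did not overlap, and the difference was −0.70 (SE 0.17, limma adjusted p = 0.686 over every probe). A second SAR1B probe gave 0.25. LARS1, the leucyl-tRNA synthetase, differed by 0.10 (SE 0.10) and had no overlap between the groups, which higher values showed for 6.38% of all features.

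**Figure D4:**
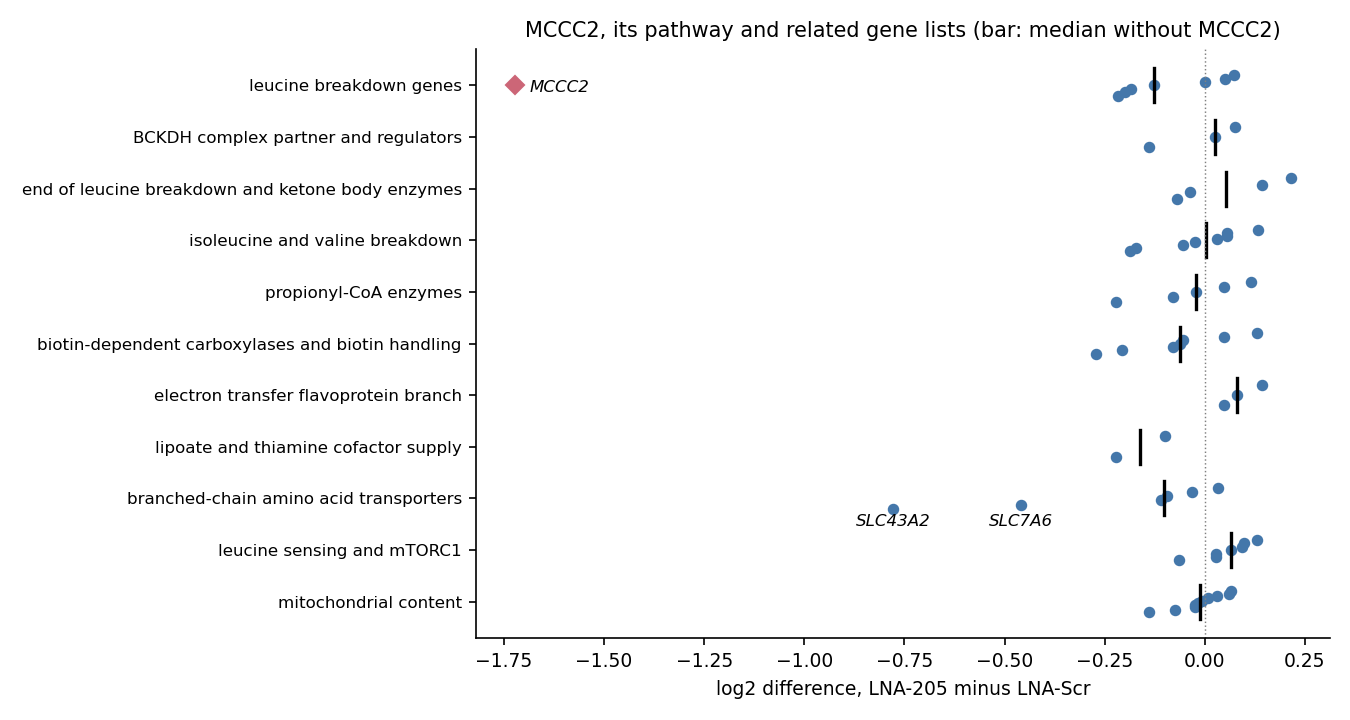
Log2 differences between LNA-205 and LNA-Scr for MCCC2 (diamond), the 7 other measured leucine breakdown genes and the measured genes of 10 related lists. Each point is a gene by its brightest probe and each bar the median of its row, without MCCC2. The medians lie between −0.16 and 0.08, and the 2 transporters SLC43A2 (−0.78) and SLC7A6 (−0.46) are the points nearest to MCCC2.

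MCCC2 lies on chromosome 5, and the 5 protein-coding genes on either side of it in RefSeq order were read as well. On one side its neighbour BDP1, a subunit of the RNA polymerase III factor TFIIIB, read 7.51, 7.53 and 7.83 in LNA-Scr and 7.37, 7.44 and 7.02 in LNA-205. These groups did not overlap, and the difference was −0.35 (SE 0.15, limma adjusted p = 0.790), with the probe above background on 3 LNA-Scr arrays and 1 LNA-205 array. On the other side the nearest gene, CARTPT, a neuropeptide precursor, was on no array well above background. The next, MAP1B, a microtubule-associated protein, read 7.32, 7.68 and 7.68 in LNA-Scr and 6.51, 6.68 and 5.86 in LNA-205. All 3 control arrays and 0 of the LNA-205 arrays were above background. The group means therefore give only a bound, at least 1.05-fold lower in LNA-205, and its size is within the spread of the controls (SD 0.21, log2 scale). LNA-Scr replicate A was below the lowest value above background of every LNA-205 array (7.38 to 7.64), so the bound does not establish a decrease. The probe passed the filter through the control arrays alone, so no test is read for it. Neither BDP1 nor any of the remaining measured neighbours passed the test. MRPS27, of the mitochondrial ribosome, differed by 0.02 (SE 0.11), PTCD2 by 0.04 (SE 0.12) and GTF2H2, a subunit of the factor TFIIH, by −0.27 (SE 0.21). NAIP and ZNF366 were on no array well above background, and LOC124900994 and LOC124900993 have no listed probe. A second PTCD2 probe gave 0.27 and a second MRPS27 probe −0.09. GTF2H2 and NAIP lie in a duplicated region, and reading of near-identical copies by their probes was not tested. Copy number was not measured.

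**Figure D5:**
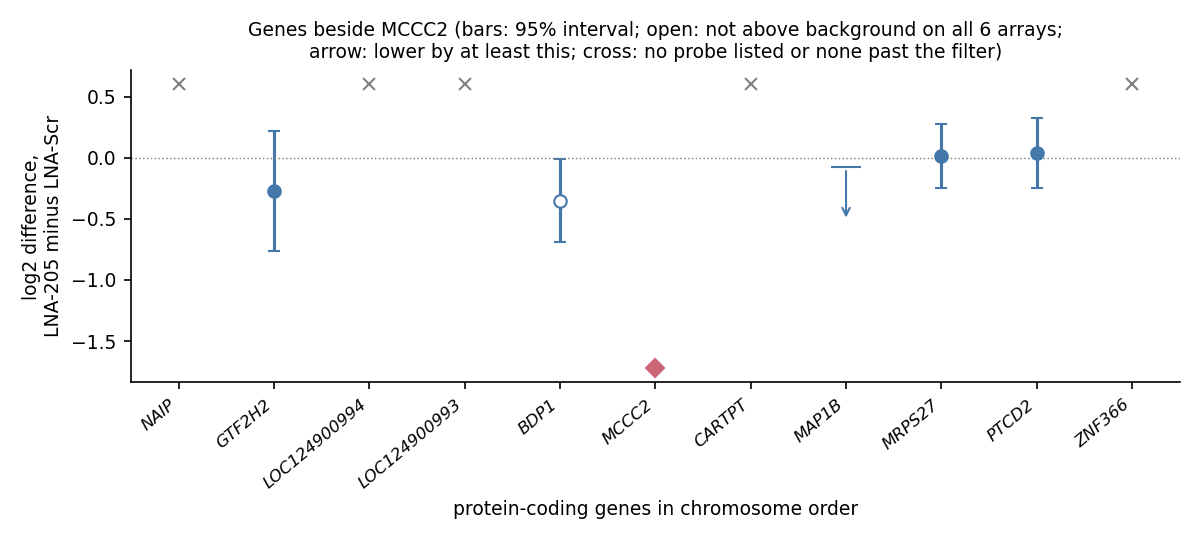
Log2 difference between LNA-205 and LNA-Scr for MCCC2 (diamond) and the 5 protein-coding genes on either side, in chromosome order, with 95% intervals from limma. The open circle is a probe not above background on all 6 arrays, and crosses mark genes that were not measured. The arrow starts at the bound for MAP1B (a mean at least 1.05-fold lower, a size within the spread of the controls). MCCC2 is at −1.72, BDP1 at −0.35 and GTF2H2 at −0.27, and the values of MRPS27 (0.02) and PTCD2 (0.04) are close to 0.

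The features whose pattern over the 6 arrays was most like that of MCCC2 were ranked by Pearson r among 8951 named features. Over 6 arrays in 2 groups such values are largely set by which features separate the groups, and 1.81% of the named features had an r above 0.9 or below −0.9. The highest were FN3KRP (r = 0.987), which encodes a kinase that acts on sugar-modified proteins, LRRFIP2 (0.984), PA2G4 (0.983), DHRS4L2 (0.972) and VGF (0.969). Their log2 differences were much smaller than that of MCCC2, from −0.39 (VGF) to −0.15 (PA2G4). The most opposed were SPRR1A (r = −0.997), a cornified envelope precursor, PIH1D1 (−0.983), RHBDD3 (−0.983), HABP4 (−0.973) and PARP14 (−0.972). SPRR1A read 9.59, 9.70 and 9.76 in LNA-Scr and 10.13, 10.21 and 10.29 in LNA-205, so that its arrays rank in the exact reverse of MCCC2, with a difference of 0.53. The features named here were picked by their pattern relative to MCCC2, itself chosen on this contrast, so no test is read for them. No leucine breakdown gene was among these 10.

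As a check of the cells, the basal epithelial keratins KRT5 and KRT14 and the luminal keratins KRT8 and KRT18 were above background on all 6 arrays by their brightest probes, with differences between −0.28 (KRT18, SE 0.18) and 0.12 (KRT5, SE 0.10). The luminal secretory marker KLK3 was on no array well above background. TP63 was not analysed here. None of 5 fibroblast, 4 leukocyte and 3 endothelial markers passed the detection filter. Between 12585 and 14195 probes were above background on an array. Bead counts were not used here, and the number of arrays limits the precision.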

How the data were processed

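The members and gene lists were chosen with earlier results of these data known. Samples were grouped by their titles. The deposited unnormalized values are log2 scanner intensities with no background subtracted, as judged from the values, and a deposited detection p-value beside each of them sets the probe against that array's negative controls. The authors' processed log2 values served as an alternative. How they were normalized is not given in the sources used. On replicate E they equalled the unnormalized values at all 48799 probes, and on every array the probes kept their order (Spearman correlation 1). They are therefore not independent of the uncorrected intensities. Per the submitters' processing notes the lumi package had a part. Values were missing in 4 of 48803 probe rows. Limma 3.58.1 (R 4.3.3) was used: neqc with an offset of 16, which infers the negative controls from those p-values, a filter of detection p under 0.01 on at least 3 of 6 arrays (13423 probes kept), and lmFit with eBayes, two-sided, with Benjamini-Hochberg adjustment at 0.05. The brightest kept probe stood for a gene, which gave 10803 features (8952 genes, 1851 unnamed probes). Names came from a platform annotation, in which 20691 probes were not listed and may include further probes of these genes. Symbols of 28056 probes were updated through RefSeq gene identifiers. Gene order came from RefSeq (GRCh38.p14), and coordinates are given for the microRNA only. For a probe below background on all arrays of a group, the bound uses the lowest value above background per array. Named genes were the 9 members, 5 neighbours per side, the 5 features most and least like MCCC2 in pattern, and, per list, the 3 genes with the smallest p and the 2 brightest others, of which some are given by range. The fit was tested on simulated data. Some genes of the lists are not reported here.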

Additional observations from a re-analysis of the deposited data

How the results depend on the processing

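The MCCC2 difference was below 0 under all 15 alternatives (from −1.95 to −1.24) and MCCC2 had the largest absolute difference in each. MCCC2 was chosen on these same arrays, so its sign, rank and calls here are a description and nothing is read from them. Without background correction and in the authors' processed values it was −1.24. The number of features called was 0 without a detection filter, with probes averaged per gene and with each probe tested on its own, 3 with an intensity trend in the prior variance (MCCC2, FERMT2 and PI3) and 0 with any 1 of the 6 arrays left out (lowest and highest both 0). Median scaling in place of quantile normalization moved the median of all features to −0.28 and called 39, 37 lower and 2 higher. MCCC2, SLC43A2 and MAP1B were among these, and MAP1B had passed the filter through the control arrays alone. In that fit every member beside MCCC2 had the same SE of 0.22, so its p-values do not follow each gene's own spread. With median scaling BCKDHA was at −0.19, DBT at −0.29, AUH at −0.19 and the median of the members beside MCCC2 at −0.39. Relative to the shift of all features these were 0.09, −0.01, 0.09 and −0.11. With single arrays left out, BCKDHA ran from −0.00402 to 0.14, AUH from −0.000249 to 0.088 and DBT from −0.12 to 0.086. That median ran from −0.19 (without LNA-205 replicate F) to −0.021 (without LNA-205 replicate E) and was −0.09 without LNA-Scr replicate B. The cause was not tested. BCAT2, BCKDHB, IVD and MCCC1 were below 0 under all 15. The smallest limma adjusted p of any member beside MCCC2 under an alternative was 0.270 (BCAT2), from the fit with median scaling. BCAT1 was not computed, because both its probes were below background. No paired analysis was possible because the replicate letters are not shared between the groups.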
